A study of Mus musculus with 6 samples.

Results

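The genes described here are 10 fast-fibre genes of mouse skeletal muscle, Myh1, Myh2, Myh4, Mylpf, Actn3, Tnni2, Tnnt3, Tnnc2, Atp2a1 and Pvalb. They were chosen by symbol from 24054 genes in a table of RNA-seq counts, and all 10 passed the filter on low counts, as did 12660 genes in all. Gastrocnemius (GAS), a mixed calf muscle, was taken from male C57BL/6 mice and gave 6 libraries. In 3 of them, MI4KO, the mice were Irf4 flox/flox and carried Myl1-Cre, which removes the transcription factor IRF4 from muscle. In the other 3, MI4OE, Myl1-Cre switched on IRF4 from a Rosa26-LSL-IRF4 allele. The Cre of both groups is driven from Myl1, itself a fast-fibre gene, the age of these mice was not given in the sources used here, and no GAS with normal IRF4 was analysed here. The labels give a high fat diet, while the study's text describes mice fed chow, so the feeding of these animals is uncertain. Each value below therefore sets a loss of IRF4 against an excess of it. No label pairs the libraries. Each is taken as 1 mouse, but the labels do not say that the libraries came from separate animals, so p-values measure the spread between these libraries.

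Muscle fibres are classed by the myosin heavy chain they carry. Myh7 marks slow type I fibres, Myh2 the oxidative fast type IIA, Myh1 type IIX, and Myh4 the fastest, most glycolytic type IIB. Fast fibres also carry their own myosin light chains, troponins, calcium pump and calcium buffer, so contraction and relaxation are both quick. In mouse hindlimb Myh2, Myh1 and Myh4 lie side by side in 1 cluster of genes, and single fibres may hold more than one of the chains.

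The 3 fast heavy chain genes are close copies, which bears on how reads of 50 bases can be assigned. In the GENCODE M21 annotation of GRCm38 their coding sequences were identical at 90.22% of aligned bases for Myh4 and Myh1, 88.19% for Myh4 and Myh2, and 90.95% for Myh1 and Myh2. Of all 50-base windows of the Myh1 transcript, 20.1% occurred unchanged in Myh2 and 10.8% in Myh4. Of the windows of the Myh2 transcript, 9.94% occurred unchanged in Myh4. With up to 2 mismatches these shares became 44.2%, 34.8% and 25.8%. Among 3955 aligned coding windows that lie within a single exon of each gene, 306 (7.74%) were identical in all 3. The first sequence below is such a window, coding bases 3028 to 3077 of Myh4 (chr11:67252275-67252324, plus strand). The 3 that follow it are the aligned window of this kind with the most differences, 21 of 50 positions, and capitals mark those positions. They lie at chr11:67254462-67254511 for Myh4, chr11:67217468-67217517 for Myh1 and chr11:67191352-67191401 for Myh2, all in coding exons on the plus strand.
Shared by Myh4, Myh1 and Myh2: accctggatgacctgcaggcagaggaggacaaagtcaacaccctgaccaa
Myh4: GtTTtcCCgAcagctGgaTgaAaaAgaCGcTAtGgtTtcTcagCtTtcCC
Myh1: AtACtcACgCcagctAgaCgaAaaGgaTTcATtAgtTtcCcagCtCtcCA
Myh2: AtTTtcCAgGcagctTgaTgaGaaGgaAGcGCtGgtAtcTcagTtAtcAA
A read from the shared window fits each of the genes equally well, whereas a read from the divergent window matches 1 of them best. RSEM, the authors' quantification program, divides the first kind by the evidence of the second, so low levels of Myh1 or Myh2 beside abundant Myh4 are less certain than their counts imply.

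Promoters of 7 of the 10 genes were found in RefSeq on GRCm38.p6, and those of Actn3, Tnni2 and Tnnt3 were not. The 250 bases before the start sites of the 3 fast heavy chains are shown because the shares of these genes differed between the libraries. Capitals mark matches, on either strand, to the TATA box TATAAA, to MEF2 and to CArG, the last 2 by their usual degenerate forms. E-boxes, CANNTG, are in lower case. The windows are chr11:67237562-67237811 for Myh4, chr11:67199852-67200101 for Myh1 and chr11:67170777-67171026 for Myh2, all on the plus strand.
Myh4 promoter: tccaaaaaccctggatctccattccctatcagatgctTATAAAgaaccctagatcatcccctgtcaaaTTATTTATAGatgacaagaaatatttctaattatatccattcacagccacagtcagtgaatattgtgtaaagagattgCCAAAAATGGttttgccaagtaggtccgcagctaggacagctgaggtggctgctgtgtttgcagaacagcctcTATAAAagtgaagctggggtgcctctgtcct
Myh1 promoter: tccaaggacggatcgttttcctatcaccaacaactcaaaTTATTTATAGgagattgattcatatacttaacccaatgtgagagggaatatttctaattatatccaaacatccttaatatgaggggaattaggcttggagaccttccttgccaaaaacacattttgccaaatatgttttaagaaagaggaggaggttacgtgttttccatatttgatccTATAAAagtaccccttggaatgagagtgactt
Myh2 promoter: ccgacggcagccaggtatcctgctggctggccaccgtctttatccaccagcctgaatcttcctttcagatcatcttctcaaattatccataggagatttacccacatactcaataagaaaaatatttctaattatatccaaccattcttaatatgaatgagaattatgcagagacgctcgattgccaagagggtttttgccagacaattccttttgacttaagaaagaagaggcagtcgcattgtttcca
The Myh4 window held 1 MEF2 match, 1 CArG match, 3 TATAAA matches, of which 1 lies inside the MEF2 match, and 2 E-boxes. The Myh1 window held 1 MEF2 match and 2 TATAAA matches, 1 of them inside the MEF2 match. None of the letters searched occurred in the Myh2 window. The last bases of that window resemble bases of the Myh1 window that lie before its TATAAA match nearest the start site. The windows thus do not line up, and bases past the Myh2 window were not searched. Among 32851 promoters of this length, 2.92% held a MEF2 match, 1.47% a CArG match, 12.4% TATAAA and 66.2% an E-box. MEF3 (TCAGGTT) and ISRE, the interferon-stimulated response element that factors of the IRF family bind, were in 3.49% and 2.98% of promoters and in no window of these genes. Outside the heavy chains, a MEF2 match was in 1 of the 2 Pvalb promoters. A match of letters is a description of the sequence and not a bound site.

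Of the 10 genes, 0 differed between MI4OE and MI4KO at an adjusted p under 0.05 by edgeR's quasi-likelihood test, where 0.0237% of all genes tested did. At an unadjusted p under 0.05 the count was also 0, against 7.58% of all genes, and 0 had ranges that did not overlap between the groups, against 12.9%. After adjustment, DESeq2 and edgeR's exact test called 0 of the 10 as well. At an unadjusted p under 0.05, DESeq2 called 0 and the exact test called 1, Myh1. The quasi-likelihood test called Myh1 alone at that threshold without a filter or without MI4OE replicate 2. It called Myh1 and Myh2 without MI4KO replicate 3. The unadjusted count was 0 under each of the other alternatives. The fitted log2 fold change of MI4OE over MI4KO was below 0 for 8 of the 10 genes and above 0 for Myh1 and Myh2, while it was below 0 for 50% of all genes tested. Its median was -0.30 over the 10 genes and -4.3e-05 over all genes. Over the 10 genes it was -0.081 without MI4KO replicate 1 and -0.17 when MI4OE replicate 1 was left out instead, with 8 of the 10 below 0 each time. In bulk muscle, fewer fibres of a type and less RNA per fibre cannot be told apart.

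**Figure D1:**
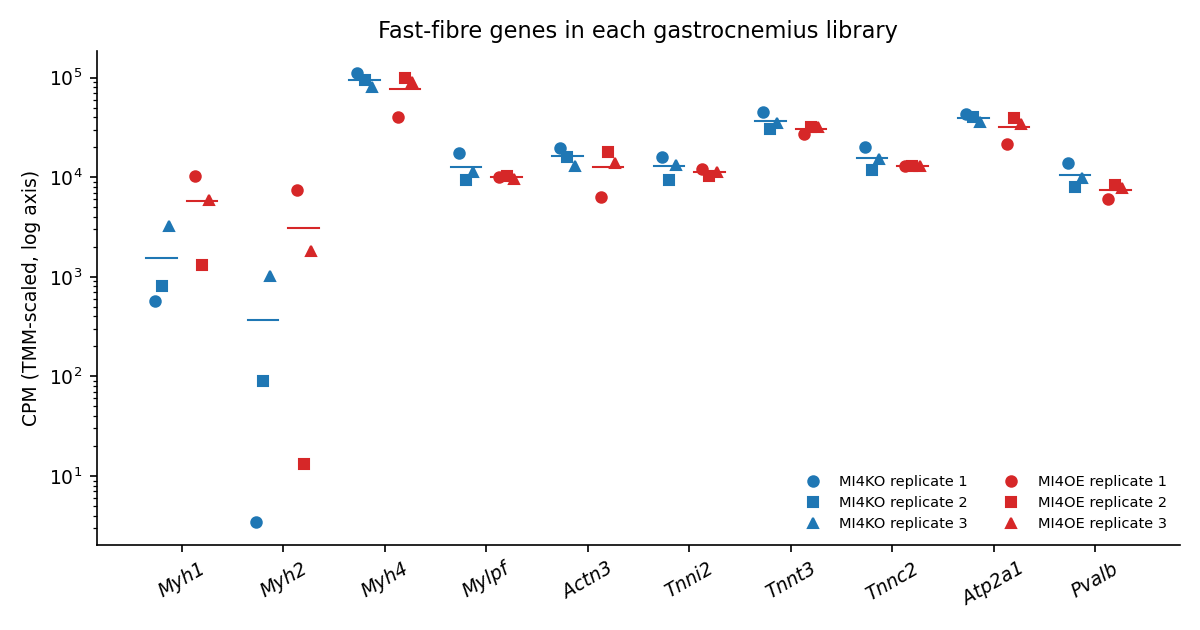
CPM (counts relative to TMM-scaled library size, log axis) of the 10 fast-fibre genes in the 3 MI4KO (blue) and 3 MI4OE (red) libraries, with bars at group means. Myh2 spreads over orders of magnitude within both groups, Myh1 by less, and the 2 groups overlap for every gene.

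Levels are given as CPM, counts relative to the TMM-scaled size of the library, or as TPM, which is also adjusted for transcript length. The libraries held 18828575 to 29239533 expected counts each, and 3 counts, the floor used here, equalled 0.101 to 0.148 CPM, and all 10 genes were above it in every library. Irf4, the check of the labels, was close to absent in the MI4KO replicates (0.246, 0 and 0.0672 CPM) and plentiful in the MI4OE replicates (140.9, 369 and 261 CPM). Irf4 thus separated the groups as labelled. Without GAS of normal IRF4, these values do not show how far the MI4KO level lies from normal. All 5 general muscle markers examined, Acta1, Ckm, Des, Mb and Ttn, were present, at a summed 84105 to 114690 CPM. The 10 fast-fibre genes made up 16.6% of all counts of MI4OE replicate 1 and 22.1% to 24.8% of those of the other 5 libraries. MI4OE replicate 1 stood apart in this and in the genes below, as did MI4KO replicate 1 in fewer.

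The fast myosin heavy chains, the motors of the thick filament, were taken first. On the length-adjusted TPM scale Myh4, the type IIB chain, was the most abundant of the 3 in every library. Its level was 24346, 29106 and 20996 TPM for MI4KO 1, 2 and 3, against 9850, 28647 and 25108 TPM for MI4OE 1, 2 and 3. Thus 1 of 6 libraries, MI4OE replicate 1, was far below the rest, and the other MI4OE libraries fell within the MI4KO range. In CPM, Myh4 was 95253 ± 15412 (SD, n = 3) in MI4KO and 75954 ± 31612 (SD, n = 3) in MI4OE. Its fitted log2 fold change was -0.33 (SE 0.38), with a 95% interval from -1.20 to 0.55 (edgeR quasi-likelihood test, adjusted p = 0.881). It was -0.023 with MI4OE replicate 1 left out and 0.10, with the sign turned, without both libraries numbered 1.

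Myh1, the type IIX chain, was at 566, 810 and 3206 CPM in the MI4KO libraries and at 10167, 1306 and 5964 CPM in the MI4OE libraries, in the order of their replicate numbers. MI4OE replicates 1 and 3 were above every MI4KO library, while MI4OE replicate 2 was below MI4KO replicate 3. Its fitted log2 fold change was 1.93 (SE 0.86), with a 95% interval from -0.07 to 3.93 (edgeR quasi-likelihood test, adjusted p = 0.677). It was 1.25 if MI4OE replicate 1 was left out and 3.06 if MI4KO replicate 3 was, and the adjusted p was 0.332 or more under all 16 alternatives. The difference did not pass the test.

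Myh2, the type IIA chain, varied more than any other of the 10 genes. It measured 3.44, 90.1 and 1022 CPM in MI4KO, against 7421, 13.2 and 1808 CPM in MI4OE. The highest library exceeded the lowest by 2158-fold, and libraries of both groups lay near each end. Behind the lowest values stood 84 counts in MI4KO replicate 1 and 378 in MI4OE replicate 2. Set against the abundant copy, these Myh2 counts equalled 0.00310% and 0.0134% of the Myh4 counts, while in MI4OE replicate 1 they equalled 18.6%. Its fitted log2 fold change was 3.05 (SE 2.09), with a 95% interval from -1.82 to 7.92 (edgeR quasi-likelihood test, adjusted p = 0.807), so these libraries give neither its size nor its direction. It was 1.30 if MI4OE replicate 1 was left out and 6.03 if MI4KO replicate 3 was.

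The make-up of the fast heavy chains was expressed as shares of the summed TPM of Myh4, Myh1 and Myh2 within a library. Myh4 made up 99.5%, 99.1% and 94.96% for MI4KO 1, 2 and 3, against 69.4%, 98.7% and 92.0% for MI4OE 1, 2 and 3. Myh1 made up 0.511%, 0.843% and 3.83% in MI4KO and 17.8%, 1.31% and 6.17% in MI4OE. For Myh2 the shares were 0.00306%, 0.0928% and 1.21% in MI4KO and 12.8%, 0.0131% and 1.85% in MI4OE. The muscles were thus mostly Myh4 by this measure, at 92.0% or more in all libraries except MI4OE replicate 1. Ordered by their Myh4 share from the top, the libraries were MI4KO 1, MI4KO 2, MI4OE 2, MI4KO 3, MI4OE 3 and MI4OE 1, an order in which the genotypes interleave.

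**Figure D2:**
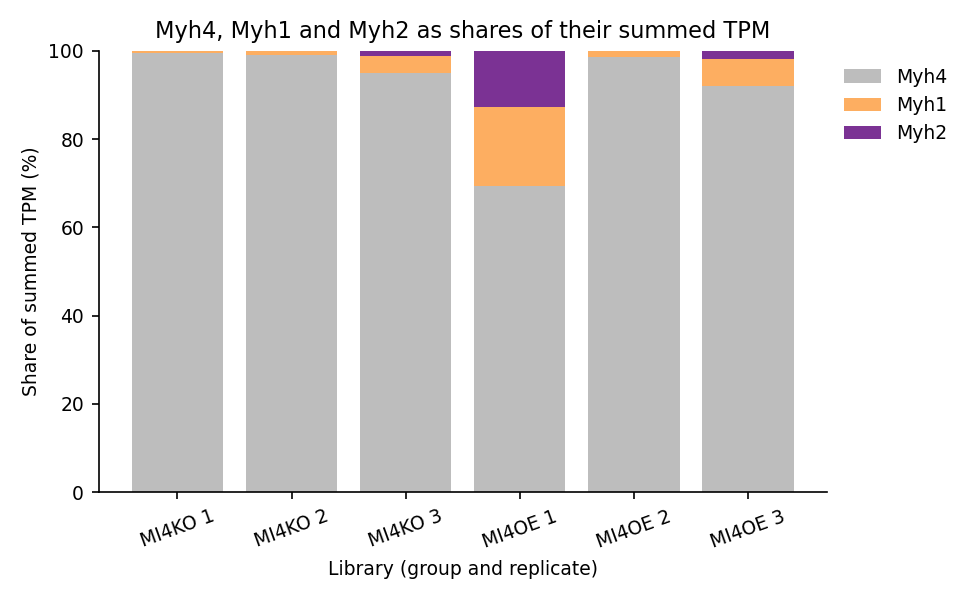
Stacked bars of the share (%) of Myh4, Myh1 and Myh2 in their summed TPM for each library. Myh4 fills 92.0% or more of every bar except that of MI4OE replicate 1, where it is 69.4%.

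Group means of the Myh4 share were 97.8 ± 2.50% (SD, n = 3) in MI4KO and 86.7 ± 15.3% (SD, n = 3) in MI4OE, a difference of -11.1 percentage points (2-sided exact permutation p = 0.2, adjusted 0.4 over 4 exact tests). The Myh1 share was 1.73 ± 1.83% and 8.41 ± 8.45%, 6.68 points higher in MI4OE (exact permutation p = 0.2, adjusted 0.4, n = 3). The Myh2 share was 0.434 ± 0.671% and 4.90 ± 6.93%, 4.46 points higher (exact permutation p = 0.3, adjusted 0.4, n = 3). With 3 against 3 libraries no exact p can be below 0.1, so these tests could not have reached 0.05. Without MI4OE replicate 1 the differences were -2.51, 2.01 and 0.50 points for Myh4, Myh1 and Myh2. Most of the difference in means therefore came from 1 library.

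Within a library the heavy chains kept 1 order, Myh4 above Myh1 above Myh2, in 6 of 6 libraries. The distances between them did not stay the same. Myh4 exceeded Myh1 by 195-, 117- and 24.8-fold in TPM for MI4KO 1, 2 and 3, and by 3.91-, 75.4- and 14.9-fold for MI4OE 1, 2 and 3. Myh1 exceeded Myh2 by 167-, 9.09- and 3.17-fold in MI4KO and by 1.38-, 99.7- and 3.33-fold in MI4OE. The 2 ratios were smallest in MI4OE replicate 1 and largest in MI4KO replicate 1. Myh2 thus varied from nearly the level of Myh1 to a small fraction of it.

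The slow chain Myh7 followed the same libraries. As a share of the 4 heavy chains in TPM it was 0.000204%, 0.0212% and 0.00122% in MI4KO and 2.71%, 0.000276% and 0.166% in MI4OE. MI4OE replicates 1 and 3, which had most Myh1 and Myh2, also had most Myh7. MI4KO replicate 3 had much Myh1 and Myh2 with little Myh7, and MI4KO replicate 2 had more Myh7 than MI4KO replicate 3. Across 11 slow-fibre genes, 10 could be tested, all with a fold change above 0, and 8 had an unadjusted p under 0.05, where 4.9% of all genes did in that direction. These were Myh7, Myl2, Tnnt1, Tpm3, Atp2a2, Tnnc1, Tnni1 and Casq2, slow or slow and cardiac forms of sarcomere and calcium-handling genes, with log2 fold changes of 2.45 to 6.87, and each was highest in MI4OE replicate 1. Myl3, a slow light chain among the most abundant of the list, had a log2 fold change of 5.14. The count of 8 fell to 0 without either library numbered 1 and to 4 without MI4KO replicate 3, and the median log2 fold change of the list, 5.67, was 2.39 without MI4OE replicate 1. None passed after adjustment over all genes, with DESeq2 and the exact test included, and for none of them did the groups keep apart. Slow-fibre genes together took 0.799% of counts in MI4OE replicate 1, 0.0729% in MI4OE replicate 3 and 0.0148% or less elsewhere. Their part in the Myh1 and Myh2 values was not tested.

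The remaining sarcomeric heavy chains, Myh3, Myh6, Myh7b, Myh8 and Myh13, are developmental, cardiac, extraocular or little-studied forms. Each gave 24.7 CPM or less in every library and was highest in MI4OE replicate 1. Myh8, the perinatal chain, measured 3.11, 1.98 and 1.38 CPM in MI4KO, against 24.7, 2.20 and 3.003 CPM in MI4OE (log2 fold change 2.20, edgeR adjusted p = 0.639). Myh13, the extraocular chain, measured 0.491, 0.317 and 0.302 CPM in MI4KO, against 7.72, 0.245 and 1.24 CPM in MI4OE (log2 fold change 3.03, edgeR adjusted p = 0.578). Neither passed after adjustment, and the groups overlapped for both. With these chains and Myh7 in the sum, the Myh4 share of MI4OE replicate 1 was 67.5%.

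Mylpf encodes the fast regulatory light chain that sits on the neck of these myosins. It measured 17556, 9333 and 11166 CPM in MI4KO, against 9951, 10390 and 9605 CPM in MI4OE. MI4KO replicate 1 was high and the other 5 libraries lay close together. Its fitted log2 fold change was -0.35 (SE 0.28, edgeR quasi-likelihood test, adjusted p = 0.843), and it was -0.043 without MI4KO replicate 1 and -0.54 with replicate 2 of that group left out.

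The fast troponin subunits make up the calcium switch of the thin filament, in which Tnnc2 binds calcium, Tnni2 inhibits and Tnnt3 ties the complex to tropomyosin. Tnnc2 measured 20174, 11682 and 15075 CPM in MI4KO, against 12999, 12944 and 12968 CPM in MI4OE. In CPM its MI4OE libraries were nearly equal, with an SD of 27.4 CPM against 4274 CPM in MI4KO. In TPM they were less alike, at 33295, 38930 and 37815 for MI4OE 1, 2 and 3. Tnni2 measured 16058, 9314 and 13174 CPM in MI4KO, against 12095, 10200 and 11220 CPM in MI4OE, all 3 of the latter within the MI4KO range. Tnnt3 measured 45480, 30358 and 34767 CPM in MI4KO, against 27212, 31638 and 31826 CPM in MI4OE, where only MI4OE replicate 1 fell outside the MI4KO range. Fitted log2 fold changes were -0.27, -0.20 and -0.29 for Tnnc2, Tnni2 and Tnnt3, with standard errors of 0.25 to 0.26 and adjusted p-values of 0.857, 0.897 and 0.849 (edgeR quasi-likelihood test). With MI4KO replicate 1, the highest library for all 3 genes, left out they were -0.050, -0.014 and -0.11.

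Actn3, the fast-fibre alpha-actinin of the Z-disc, measured 19620, 15989 and 12919 CPM in MI4KO, against 6391, 18081 and 13802 CPM in MI4OE. As for Myh4, MI4OE replicate 1 was low and the other MI4OE libraries were within the MI4KO range. Its fitted log2 fold change was -0.34 (SE 0.39, edgeR quasi-likelihood test, adjusted p = 0.880), -0.025 with MI4OE replicate 1 left out and 0.14 without both libraries numbered 1.

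Atp2a1 and Pvalb act in relaxation. Atp2a1, the fast calcium pump of the sarcoplasmic reticulum (SERCA1), measured 42974, 40294 and 35750 CPM in MI4KO, against 21749, 39110 and 34473 CPM in MI4OE. Pvalb, the cytosolic calcium buffer parvalbumin, measured 13734, 7941 and 9841 CPM in MI4KO, against 5993, 8376 and 7827 CPM in MI4OE. For both genes MI4OE replicate 1 was lowest and the groups overlapped. MI4KO replicate 1 was highest for Pvalb, and for Atp2a1 in CPM only, since MI4KO replicate 2 was highest in TPM (21909 against 16864) and as a share of the total counts. Fitted log2 fold changes were -0.32 (SE 0.28) for Atp2a1 and -0.51 (SE 0.28) for Pvalb (edgeR quasi-likelihood test, adjusted p = 0.851 and 0.736). The value for Atp2a1 was -0.11 with MI4OE replicate 1 left out, and that for Pvalb -0.27 with MI4KO replicate 1 left out. The 95% interval for Pvalb, the furthest below 0 of the 10, ran from -1.15 to 0.14.

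**Figure D3:**
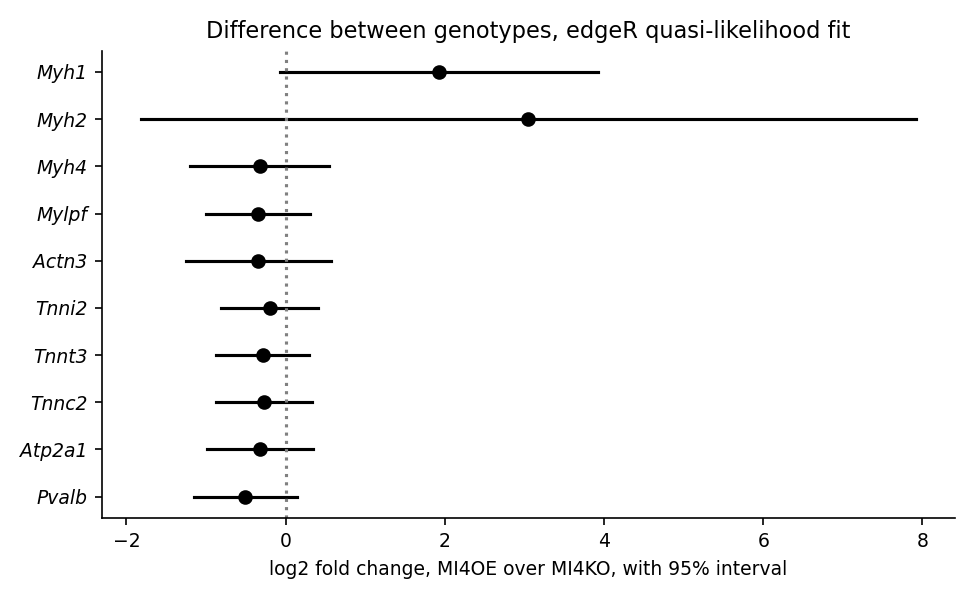
Log2 fold change of MI4OE over MI4KO (points) with 95% intervals (lines) from edgeR's quasi-likelihood fit, 3 libraries per group. All 10 intervals include 0, and that of Myh2 is the widest, from -1.82 to 7.92.

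Relative to one another on the TPM scale, the genes kept much of their order. Tnnt3 ranked first of all genes in 6 of 6 libraries, at 59638 to 64893 TPM in MI4KO and 44091 to 59680 TPM in MI4OE. Among the 10 genes it was followed in MI4KO by Tnnc2 (36941 to 46042 TPM), Tnni2 (30803 to 38328 TPM), Mylpf (26575 to 36081 TPM) and Myh4 (20996 to 29106 TPM). Next came Pvalb (18329 to 22880 TPM), Atp2a1 (16774 to 21909 TPM) and Actn3 (7274 to 10432 TPM). From Tnnc2 to Atp2a1 the ranges of neighbours overlapped between libraries, while Tnnt3 stood clear above Tnnc2 and Actn3 clear below Atp2a1. Within a library, Tnnc2 was above Tnni2 and Tnni2 above Mylpf in 6 of 6 libraries, and Myh4 was above Pvalb in 5 of 6. Mylpf was above Myh4 in 4 of 6 and Pvalb above Atp2a1 in 3 of 6, so the order of these last pairs changed from library to library. Myh1 (125 to 847 TPM) and Myh2 (0.75 to 267 TPM) were far below, overlapping each other. In MI4OE, Actn3 (3377 to 11220 TPM) overlapped Atp2a1 (9579 to 20226 TPM), and Myh1 and Myh2 remained under 2520 TPM.

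Of the 8 genes other than Myh1 and Myh2, in CPM all 8 were highest in MI4KO replicate 1 and 5 were lowest in MI4OE replicate 1. In TPM these numbers were 5 and 7, and as shares of the total counts 5 and 5, with Myh4, Actn3 and Atp2a1 highest in other libraries on both scales. They did not move by a common factor in MI4OE replicate 1, where the genes with long transcripts were the lower ones. The 3 with long transcripts, Myh4 (6037 bases), Atp2a1 (3440 bases) and Actn3 (2887 bases), were at 41.8%, 55.6% and 39.97% of the median of the other 5 libraries in CPM. Those with short transcripts were less reduced or not reduced, with Pvalb (903 bases) at 71.5%, Tnnt3 (1034 bases on average) at 85.5%, Mylpf (755 bases) at 95.8%, Tnnc2 (692 bases) at 100.2% and Tnni2 (667 bases) at 107.8%. Myh1 and Myh2, with transcripts of 6019 and 6083 bases, went the other way, at 779% and 8241%. Long transcripts were thus at both ends.

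The same slope with length was present over all genes tested. In MI4OE replicate 1 the median log2 ratio to the other libraries was 0.49 for 1193 genes with transcripts under 1100 bases, 0.09 for 5056 genes from 1100 to 2800 bases and -0.14 for 6411 longer genes. In MI4KO replicate 1 these medians were 0.22, 0.05 and -0.11. There, in CPM, Mylpf (176%), Pvalb (173%), Tnnc2 (156%), Tnnt3 (144%) and Tnni2 (143%) exceeded the median of the other libraries by more than Actn3 (142%), Myh4 (124%) and Atp2a1 (120%), though Actn3 differed little from Tnni2. Myh1 and Myh2 were at 17.7% and 0.337% in MI4KO replicate 1. The part of transcript length in the differences between groups was not tested. Without both of these libraries the median log2 fold change of the 10 genes was -0.040, and 6 of 10 were below 0.

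**Figure D4:**
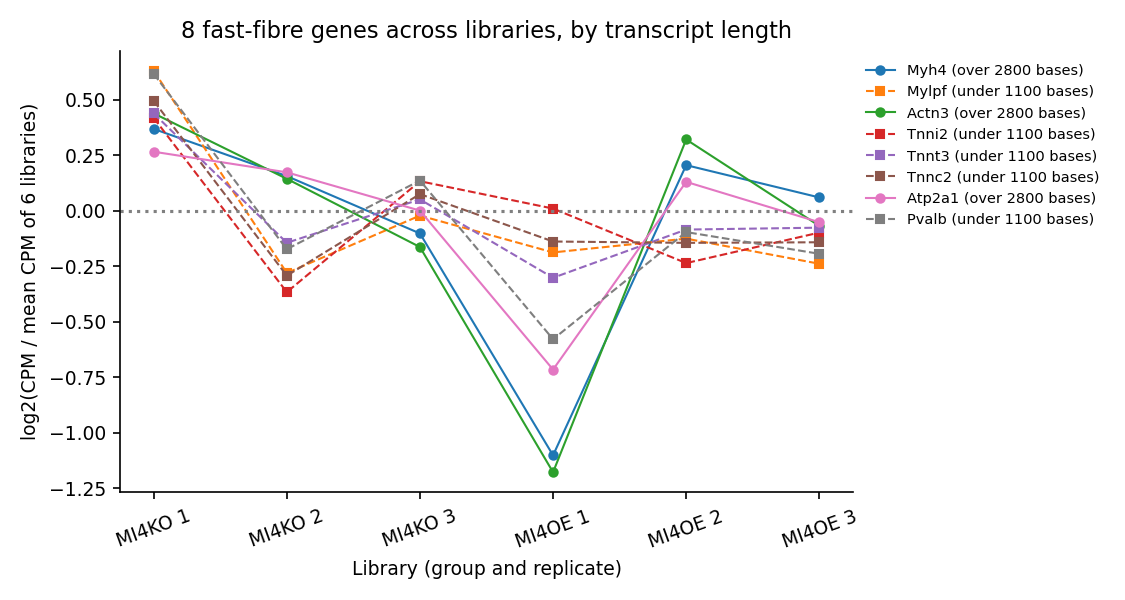
Level of 8 fast-fibre genes in each library as log2 of CPM over the mean of the 6 libraries. Solid lines with circles are transcripts over 2800 bases and dashed lines with squares are under 1100 bases, and in MI4OE replicate 1 the 3 solid lines fall below all of the dashed ones.

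Tnnt3 was the only 1 of the 10 genes with more than 1 transcript in the deposited files. It had 8 transcripts, which differ in small exons. Tnnt3 RNA is spliced with a pair of alternative exons of 41 bases near its 3' end, of which a transcript holds 1. They are shown here because the levels of their transcripts moved between libraries, with capitals at the 23 of 41 positions that differ. The first is at chr7:142513665-142513705 and the second at chr7:142514326-142514366, plus strand, GRCm38 with GENCODE M21, both coding.
Tnnt3 first alternative exon: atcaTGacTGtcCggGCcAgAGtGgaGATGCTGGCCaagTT
Tnnt3 second alternative exon: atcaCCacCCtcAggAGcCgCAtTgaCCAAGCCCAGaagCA
Of the 8 transcripts, NM_001163665 alone carries the first exon and the other 7 carry the second.

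The leading Tnnt3 transcript, NM_011620, made up 61.4%, 67.7% and 65.9% of Tnnt3 TPM in MI4KO and 56.3%, 66.0% and 65.5% in MI4OE. The difference of -2.41 percentage points had an exact permutation p of 0.6 (adjusted 0.6, n = 3), and it was 0.76 points without MI4OE replicate 1. NM_001163665, with the first exon, made up 35.4%, 29.5% and 27.5% in MI4KO and 14.4%, 31.3% and 26.6% in MI4OE. The share with the first exon was thus lowest in MI4OE replicate 1, and the groups overlapped. Another 4 transcripts, NM_001163666, NM_001163668, NM_001163669 and NM_001163670, together made up 3.17%, 2.83% and 6.67% in MI4KO and 29.3%, 2.66% and 7.87% in MI4OE. The libraries highest in these 4, MI4OE replicates 1 and 3 and MI4KO replicate 3, were also the 3 highest in Myh1 and Myh2. These shares rest on RSEM's division of reads of 50 bases among transcripts that share most of their sequence.

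**Figure D5:**
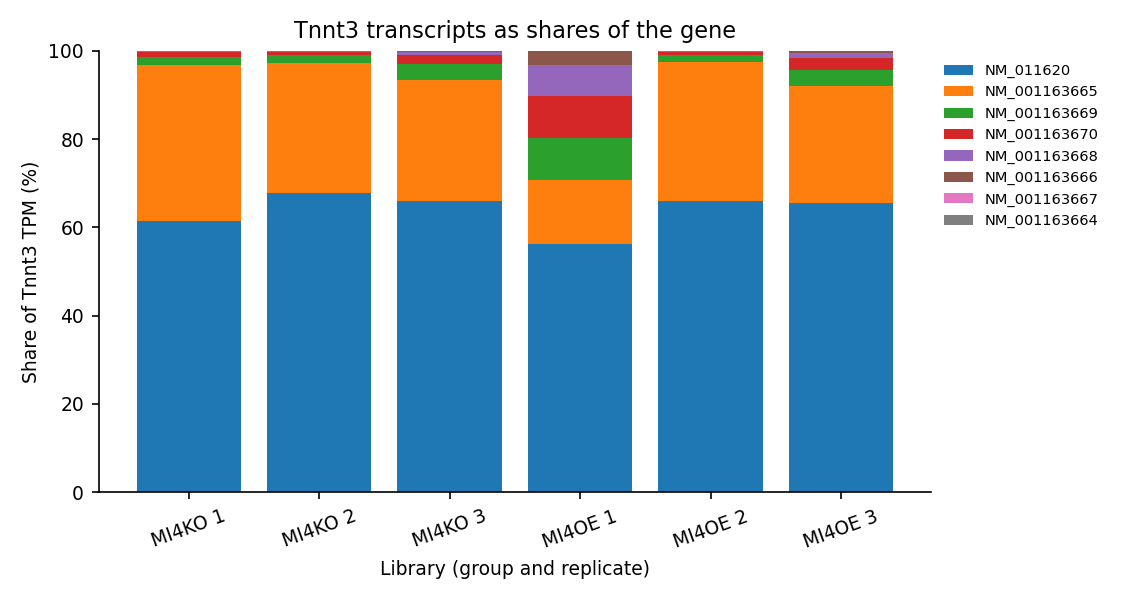
Stacked bars of the share (%) of each Tnnt3 transcript in the gene's TPM for each library. NM_011620 and NM_001163665 fill nearly all of each bar except in MI4OE replicate 1, where 4 others make up 29.3%.

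Genes listed as fast-fibre genes beyond the 10, not all of them particular to fast fibres, had fold changes mostly below 0, and none passed the test. Of 14 such genes, 14 were tested, 13 had a fold change below 0, and 0 had an unadjusted p under 0.05. Their median log2 fold change was -0.27. The most abundant were Acta1, skeletal alpha-actin, Tpm1, alpha-tropomyosin, Myl1, the fast alkali light chain, and Mybpc2, fast myosin-binding protein C. Their log2 fold changes were -0.17, -0.20, -0.42 and -0.19. Acta1 is also counted among the general muscle markers above. Ranges of the groups did not overlap for 2 of the 14, Myl1 and the calcium-binding calsequestrin Casq1, where 5.48% of all genes were apart in that direction. Myl1 measured 16251, 11023 and 11742 CPM in MI4KO, against 8396, 10526 and 10235 CPM in MI4OE (edgeR adjusted p = 0.762). It is the gene whose locus carries Cre in both groups. By the paper's methods the MI4KO mice had a Cre-negative parent, so their Cre came from the other parent alone. The MI4OE mice came from a cross of Myl1-Cre with Rosa26-LSL-IRF4 mice, and the number of their Cre copies is not stated.

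Regulators of fibre type were also examined, and of the 13 reported here 12 could be tested. The list was not split by whether a factor favours fast or slow fibres, so its counts of direction do not measure the fast programme. A fold change below 0 was found for 8, and 1 of these had an unadjusted p under 0.05, where 2.68% of all genes did in that direction. None passed after adjustment, with DESeq2 and edgeR's exact test included. The gene at an unadjusted p under 0.05 was 2310065F04Rik, a long non-coding RNA that lies between Myh3 and Myh2 in the order of the myosin cluster in RefSeq. Its level was 220.6, 163 and 182 CPM in MI4KO, against 70.6, 100.2 and 134 CPM in MI4OE, with no overlap (log2 fold change -0.89, standard error 0.26, edgeR adjusted p = 0.521). Its adjusted p ran from 0.0975 to 0.912 over the 16 alternatives. The most abundant regulators besides 2310065F04Rik were Mef2c, a myocyte enhancer factor, Tbx15, a T-box factor, and Maf, with log2 fold changes of 0.12, -0.29 and -0.23. Eya1, a transcriptional co-activator, and Sox6, a repressor of slow-fibre genes, had log2 fold changes of -0.19 and -0.39 with adjusted p-values of 0.915 and 0.851 (edgeR quasi-likelihood test). Vgll2, a co-factor of TEAD transcription factors, had the largest log2 fold change of the regulators given here, 1.54 (edgeR adjusted p = 0.685). It measured 20.6, 19.8 and 41.4 CPM in MI4KO, against 162.5, 18.3 and 57.4 CPM in MI4OE, with MI4OE replicate 1 far above the rest.

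Among 6404 genes with a mean of at least 10 CPM, those most like each heavy chain over the 6 libraries were listed by Pearson's r of log2 CPM, as a description. Nearest to Myh4 were Sms (r = 0.999), Trim28 (0.995) and Gtdc1 (0.994). Sms, spermine synthase, was at 229, 204 and 169 CPM in MI4KO and 88.4, 209 and 182 CPM in MI4OE, and like Myh4 was lowest in MI4OE replicate 1. Nearest to Myh1 were Tspan4 (0.993), Lmod1 (0.992) and Cd248 (0.986), and nearest to Myh2 were Cbfa2t3 (0.992), Ddo (0.988) and Smarcd2 (0.986). Cbfa2t3 ranged only from 14.0 to 21.4 CPM, Ddo from 21.1 to 27.0 CPM and Smarcd2 from 9.13 to 11.8 CPM. These 3 shared the order of Myh2 over the libraries but not the size of its changes. Cd248, a surface protein of pericytes and fibroblasts, ranged from 4.42 to 20.8 CPM, and Lmod1, an actin nucleator of smooth muscle, from 6.89 to 19.4 CPM. These values describe 6 libraries, among them the 2 that stood apart, out of a search over 6404 genes.

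Markers of other cells in the muscle were also examined, and none passed after adjustment. Of 6 fibroblast markers, 6 were higher in MI4OE at an unadjusted p under 0.05 with no overlap, where 4.9% of all genes were called in that direction and 12.9% did not overlap in either. Their summed level was 204 to 309 CPM in MI4KO and 358 to 484 CPM in MI4OE. Of 6 endothelial markers 6 had a fold change above 0, 3 of them at an unadjusted p under 0.05 (90.4 to 140.1 CPM against 160.0 to 322 CPM). Of 6 adipocyte markers 6 were below 0, 5 at an unadjusted p under 0.05 and 4 without overlap, where 2.68% and 5.48% of all genes were in that direction. Adipoq, Plin1, Cidec, Lep and Cfd had log2 fold changes of -3.53 to -4.07, while Fabp4, which made up most of the sum in 5 of 6 libraries, had one of -0.66. The sum was 181 to 935 CPM in MI4KO and 113 to 266 CPM in MI4OE. For Schwann cells 6 of 6 were above 0 (29.99 to 129.5 CPM against 83.2 to 244 CPM). For tendon 4 of 5 were, 1 of them at an unadjusted p under 0.05 (27.0 to 71.0 CPM against 40.4 to 126.8 CPM). Macrophage markers summed to 21.2 to 33.3 CPM and 17.0 to 32.2 CPM. Erythrocyte markers were above 0 for 4 of 4 tested, 1 of them at an unadjusted p under 0.05. They summed to 189 to 299 CPM and 250 to 755 CPM, and Hba-a2 was at 0 in every library. The 10 fast-fibre genes, far above each of these sums, totalled 216680 to 286750 CPM in MI4KO and 153840 to 230800 CPM in MI4OE. Their part in the values of the fast-fibre genes was not tested.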

How the data were processed

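RNA was measured in 6 libraries of mouse GAS, 3 per genotype label. As the labels and the paper's methods describe, stranded mRNA libraries were sequenced as single reads of 50 bases and demultiplexed with bcl2fastq 2.17. The authors mapped the reads with Bowtie2 2.1.0 to a UCSC transcript set and quantified them with RSEM 1.2.15. The genome build is not given in the sources used here, so printed coordinates are those of the reference annotations named with them. The expected counts deposited by the authors are unnormalized RSEM estimates for genes and for transcripts. The deposited TPM values are RSEM abundances adjusted for transcript length. Tables of the authors' own comparison, with fold changes and p-values, were not used.

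Expected counts were rounded, and edgeR 4.0.16 was run on them under R 4.3.3 (filterByExpr with a minimum count of 10 and a minimum total of 15, TMM factors, quasi-likelihood test, Benjamini-Hochberg adjustment over 12660 genes). CPM use the TMM-scaled library sizes. Shares were computed from TPM and compared with exact permutation tests (SciPy 1.17.1). Intervals are at 95% and the floor is 3 counts, which covers counting error only. The test was checked on simulated counts. Alternatives were 2 other filters, 3 other scalings, DESeq2 1.42.0, edgeR's exact test, limma 3.58.1 on log2(TPM + 1) and log2(TPM + 0.1), and each library left out. A fit without both libraries numbered 1 was added after the data were seen.

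The 10 genes, the other gene lists and the markers were chosen with earlier results of these data known. All 10 were named. From the other fast-fibre genes, regulators, slow-fibre genes and other heavy chains, those at an unadjusted p under 0.05 and up to 4 with the largest mean CPM were named. The markers of other cells were given mainly as counts and sums. Casq1, Eya1, Sox6 and Vgll2, and single adipocyte markers, were named after their values were seen. Some regulators are not reported here.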

Additional observations from a re-analysis of the deposited data

How the results depend on the processing

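No paired analysis was possible because the labels give no replicate numbers and the numbers used here follow the order of deposition. None of the 10 fast-fibre genes passed an adjusted p of 0.05 under any of 16 alternatives. Their median log2 fold change moved from -0.30 to -0.081 without MI4KO replicate 1, to -0.17 with MI4OE replicate 1 left out and to -0.040 without both, and ran from -0.38 to -0.081 over fits without 1 library. Without both libraries numbered 1 the log2 fold change of Myh4 turned to 0.10 and that of Actn3 to 0.14, while Myh1 moved from 1.93 to 0.86 and Myh2 from 3.05 to 0.71, their lowest values. Without MI4OE replicate 1 the difference in the leading Tnnt3 transcript turned to 0.76 percentage points (range over fits without 1 library, -4.19 to 0.76). The cause was not tested. Over the same fits the share differences ran from 2.01 to 10.2 points for Myh1, 0.50 to 6.90 for Myh2 and -17.1 to -2.51 for Myh4, and without both libraries numbered 1 they were 1.40, 0.28 and -1.68. DESeq2 and edgeR's exact test called 111 and 112 genes in all, against 3 with the quasi-likelihood test, 5 with limma on log2(TPM + 0.1) and 1 to 4 over fits without 1 library, with 1 when MI4KO replicate 1 was left out. The log2 fold change of Irf4 was then 12.61, and Irf4 had an adjusted p of 0.0587. Scaling to total counts moved the median of all genes to 0.09 and left 8 of the 10 genes below 0. With 3 libraries per group and 2 that stood apart, the intervals of Myh1 and Myh2 were wide, and the lowest Myh2 value rested on 84 counts.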
